A study of Rattus norvegicus with 6 samples.

Results

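The genes described are those of the proteasome, namely the subunits of its constitutive and immune forms with their activators and the inhibitor Psmf1. They were taken as a list of 42 genes, and 39 of them were measured by a probe set annotated to that gene alone, of 18166 genes measured in this way. Psma3 and Psme3 were covered only by probe sets that name several genes, and Psmd10 was not analysed here. Where a gene had several such probe sets, as Psmb6 did, the one with the highest mean over all arrays stood for it. Cerebral arteries of male rats were compared on 6 Affymetrix arrays. In SAH arrays 1, 4 and 5 the vessels came from rats killed 6 hours after a subarachnoid haemorrhage (SAH), in which blood escapes beneath the arachnoid membrane that covers the brain. Sham arrays 6, 7 and 8 came from sham-operated rats. The labels name neither the strain and age of the rats nor the way the bleed was made, and give no time for the sham group. They do not say that each array came from another animal, so the spread behind each p-value may be partly technical.

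The proteasome degrades proteins tagged with ubiquitin. Its core, the 20S particle, stacks rings of alpha subunits on rings of beta subunits, and proteolysis is done by Psmb6 (beta1), Psmb7 (beta2) and Psmb5 (beta5). The 19S particle caps the core, recognises and unfolds the substrate and removes its ubiquitin. Interferon gamma is known to induce Psmb9, Psmb10 and Psmb8, which take the places of these 3 catalytic subunits in newly built immunoproteasomes, together with Psme1 and Psme2, which form the PA28 activator. The immunoproteasome is abundant in leukocytes and is best known for making peptides for MHC class I.

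The values are log2 expression values after RMA, and array medians lay between 7.31 and 7.37. All 39 genes passed a filter on dim probe sets, which asked that at least 3 arrays read above their median. The labelled tissue was checked against its markers. The smooth muscle genes Myh11, Tagln and Des read between 12.51 and 13.63 on the 6 arrays, and the endothelial genes Cdh5 and Vwf between 10.93 and 11.87. These are bright members of their lists. Lmod1 of smooth muscle read 9.38 to 9.82, and Cldn5 of endothelium 7.96 to 9.28. Among neuron and glia markers Gfap read 8.71 to 10.23, above the array medians, while Syt1 and Mog fell below them on some arrays. Brain tissue may thus be present in the samples.

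Of the 39 genes, 3 rose after SAH and none fell, by limma's test (Benjamini-Hochberg adjusted p under 0.05 across every probe set tested). The 3 were Psmb9, Psme2 and Psmf1. Among all genes 0.963% were called higher and 0.33% lower in the same fit. The other 36 members did not pass. The median log2 difference, SAH minus sham, was 1.21 over the 5 interferon-inducible genes Psmb8, Psmb9, Psmb10, Psme1 and Psme2, 0.04 over the other 34 members and -0.01 over all genes tested. Differences were above 0 for 27 of the 39 members, against 47.3% of all genes. The SAH values lay above all sham values in 14 members and below them in 2, against 11.4% and 15.4% of all genes.

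The 3 catalytic subunits of the immunoproteasome had the largest differences of the 39 genes. Psmb9, the beta1i subunit (probe set 17753152), stood at 11.57, 11.62 and 11.67 after SAH (arrays 1, 4 and 5, the order kept throughout) against 10.04, 10.47 and 10.10 in sham (arrays 6, 7 and 8). The SAH values were close to each other and stood 1.11 above the highest sham value. Psmb9 rose 2.67-fold, from 10.20 ± 0.23 to 11.62 ± 0.05 (mean log2 value ± SD, n = 3 each; limma log2 difference 1.42 ± 0.13 SE; adjusted p = 0.00946). Its call was lost when SAH array 4 (limma adjusted p = 0.0698), SAH array 5 (0.05003) or sham array 6 (0.0612) was left out, and held without SAH array 1 (0.0129), sham array 7 (0.0238) or sham array 8 (0.0426).

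Psmb10, the beta2i subunit (probe set 17733202), read 10.08, 10.87 and 10.65 in the SAH arrays and 9.27, 9.35 and 9.36 in the sham arrays. The groups were 0.72 apart, and SAH array 1 was the lowest of its group. The log2 difference was 1.21 ± 0.20 (SE), 2.31-fold, and it did not pass in limma's test (adjusted p = 0.0575). It passed with dim probe sets left out (limma adjusted p = 0.0232), with trend and robust options (0.0395) and with array weights (0.0276). It did not pass with quantile normalization repeated (limma adjusted p = 0.0504), array medians subtracted (0.0649) or a covariate for neutrophil markers (0.278). Nor did it pass under the other probe set rules (limma adjusted p = 0.0575 and 0.0586). Psmb8, the beta5i subunit (probe set 17756795), read 9.60, 10.70 and 10.40 after SAH and 9.22, 8.41 and 9.21 in sham. Here both groups spread widely: SAH array 1 lay only 0.38 above sham array 6, and sham array 7 lay far below the other sham arrays. The difference of 1.29 ± 0.33 (SE) did not pass either (limma adjusted p = 0.155). Without SAH array 1 both passed, Psmb10 at 1.44 (limma adjusted p = 0.00527) and Psmb8 at 1.603 (limma adjusted p = 0.0487). With any other array left out neither passed, with limma adjusted p of 0.146 to 0.249 for Psmb10 and 0.231 to 0.373 for Psmb8, and Psmb8 had 0.517 with the neutrophil covariate.

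**Figure D1:**
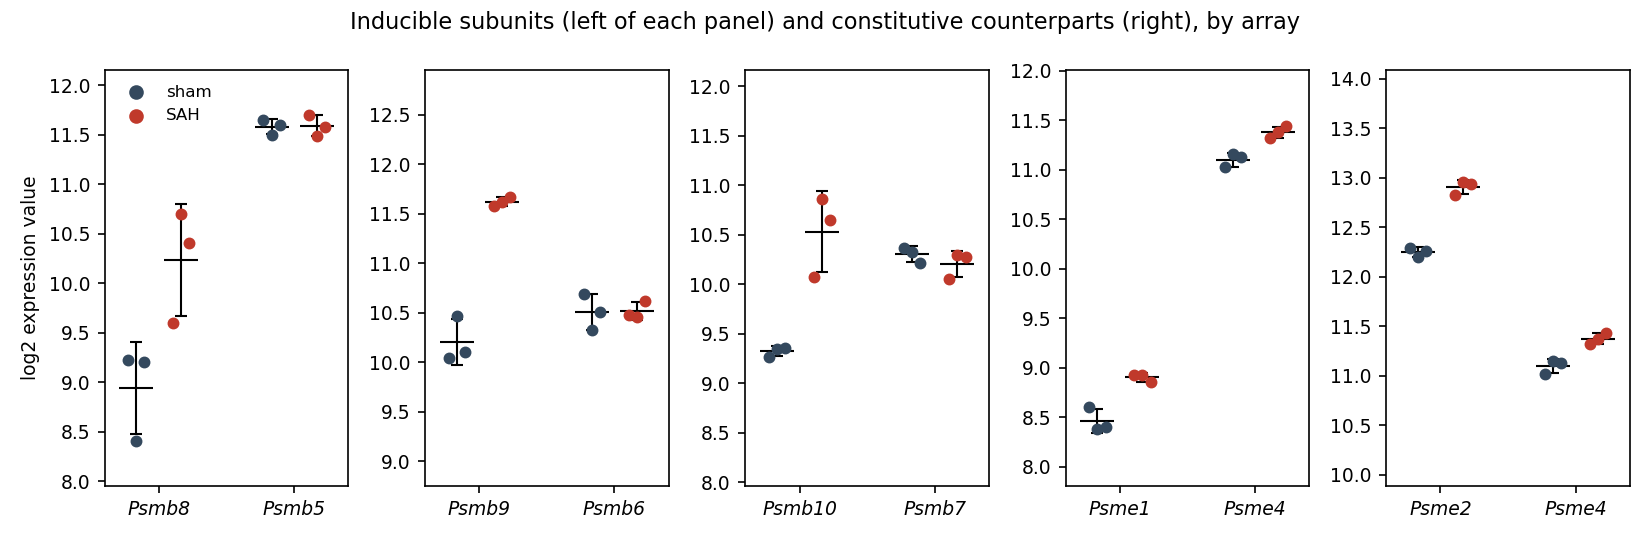
Log2 expression values (vertical axis) of each interferon-inducible gene and a constitutive gene of like place in the proteasome, with 1 point per array, sham in dark blue and SAH in red, and bars for the mean and SD of 3 arrays. The SAH points of Psmb8, Psmb9, Psmb10, Psme1, Psme2 and Psme4 lie above all sham points of the same gene, while those of Psmb5, Psmb6 and Psmb7 overlap with sham; heights of different genes are not comparable, since probes differ.

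Some promoters of these genes are shown because the signal of the inducible subunits shifted relative to that of the constitutive ones. Those of Psme1, Psma4, Psmb3 and Psmd7 were searched too but are not printed. RefSeq's promoter table for the GRCr8 assembly, with 250 bases before and 50 after each listed start site, held 38 of the 42 genes. In it the core of the interferon-stimulated response element, GAAA and again GAAA with any 2 bases between, was searched on both strands, and the motifs below are written with N as any base. It was found for 6 of the 38 members, Psmb8, Psmb10, Psme2, Psma4, Psmb3 and Psmd7, and in 3.92% of all 33469 promoters. The match is in capitals in the sequences below, which run 5′ to 3′ on the gene's own strand. Those of Psmb9 and Psmb6 end before the first base of the gene's longest span. Psme2 is cut to 30 bases around its match, since a longer transcript spans its listed start site.
Psmb8, chr20:4657026-4657145, minus strand: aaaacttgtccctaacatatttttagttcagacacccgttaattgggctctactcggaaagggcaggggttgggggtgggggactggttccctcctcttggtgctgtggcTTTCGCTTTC
Psmb9, chr20:4668832-4668951, plus strand: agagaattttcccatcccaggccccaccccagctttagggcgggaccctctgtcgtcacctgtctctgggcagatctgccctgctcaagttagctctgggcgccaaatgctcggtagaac
Psmb10, chr19:50743293-50743412, minus strand: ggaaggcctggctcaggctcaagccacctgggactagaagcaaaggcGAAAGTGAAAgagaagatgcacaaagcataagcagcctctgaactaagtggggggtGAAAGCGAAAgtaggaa
Psme2, chr15:33052785-33052814, minus strand: cctggagagtGAAAGCGAAAgctggggctg
Psmf1, chr3:160720916-160721035, minus strand: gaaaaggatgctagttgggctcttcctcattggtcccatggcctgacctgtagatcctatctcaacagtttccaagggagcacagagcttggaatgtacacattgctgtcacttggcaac
Psmb5, chr15:32047380-32047499, minus strand: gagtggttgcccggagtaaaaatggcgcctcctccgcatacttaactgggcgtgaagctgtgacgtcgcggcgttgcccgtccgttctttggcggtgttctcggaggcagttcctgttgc
Psmb6, chr10:55737732-55737851, plus strand: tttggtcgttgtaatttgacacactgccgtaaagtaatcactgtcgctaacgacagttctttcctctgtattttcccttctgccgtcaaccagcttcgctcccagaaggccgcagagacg
Psmb7, chr3:42827471-42827590, minus strand: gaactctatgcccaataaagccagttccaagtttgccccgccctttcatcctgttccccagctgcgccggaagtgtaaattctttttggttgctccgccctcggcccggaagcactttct

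Psmb10 held 2 matches, starting 73 and 17 bases before its start site. The match of Psme2 began 53 bases before the start, and that of Psmb8 began 4 bases before the start and ran across it. Psmb9 and Psmf1, which were called, held none in this window, nor did Psme1, Psmb5, Psmb6 or Psmb7. Psma4, Psmb3 and Psmd7, which held one, differed by 0.29, -0.05 and 0.03 and did not pass. The gamma-activated sequence TTCNNNGAA was found for 4 members, Psmb8, Psmc6, Psmd3 and Psmd7, and in 8.87% of all promoters. An antioxidant response element core, TGACNNNGC, was found for 8 members, including Psmb2, Psmb5, Psmb6 and Psme4, and in 12.1% of all promoters. These are matches of letters, and no binding was measured.

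The constitutive catalytic subunits gave no difference that passed. Psmb5 (beta5) read 11.70, 11.49 and 11.58 after SAH and 11.65, 11.50 and 11.60 in sham, and the groups overlapped. Its log2 difference was 0.01, with a 95% interval from -0.23 to 0.25. For Psmb6 (beta1) the difference was 0.01 (95% interval -0.28 to 0.30), and the second probe set of this gene gave -0.09 ± 0.12 (SE). Psmb7 (beta2) differed by -0.10 (95% interval -0.36 to 0.16). The sign of the Psmb5 difference turned when quantile normalization was repeated, and that of Psmb6 when array medians were subtracted. Limma's adjusted p for the 3 genes ran from 0.747 to 0.985.

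The inducible and constitutive members were also compared within arrays, as the log2 value of the one minus that of the other. For Psmb9 minus Psmb6 this stood at 1.099, 1.16 and 1.05 in the SAH arrays and at -0.65, 0.14 and -0.40 in the sham arrays. The groups were 0.91 apart, and the difference between them was 1.41 ± 0.24 (SE). For Psmb10 minus Psmb7 the shift was 1.31 ± 0.18 (SE), with a gap of 0.88 between the groups. Psmb8 minus Psmb5 shifted by 1.28 ± 0.45 (SE), and its groups were only 0.29 apart. Each of these 3 shifts had p = 0.1 in an exact two-sided permutation test, the smallest that 3 arrays against 3 can give, and 0.125 after Benjamini-Hochberg adjustment over 5 pairs. In relative terms the ratio of inducible to constitutive signal was 2.42 to 2.65 times higher after SAH, and in each pair the 3 SAH arrays stood above the 3 sham arrays.

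PA28 is a ring of Psme1 and Psme2 that opens the core without ubiquitin. Psme2 (probe set 17702927) read 12.83, 12.96 and 12.94 after SAH and 12.29, 12.20 and 12.26 in sham, a gap of 0.54. The mean went from 12.25 ± 0.05 to 12.91 ± 0.07 (SD, n = 3 each), so that Psme2 rose 1.58-fold (limma log2 difference 0.66 ± 0.09 SE; adjusted p = 0.0371). The call held without SAH array 1 (limma adjusted p = 0.0299) and was lost with any other array left out, namely SAH array 4 (0.137), SAH array 5 (0.135), sham array 6 (0.192), sham array 7 (0.182) and sham array 8 (0.116). Psme1 (probe set 17698850) read 8.92, 8.92 and 8.85 after SAH and 8.60, 8.38 and 8.40 in sham. All SAH values were above all sham values, but the difference of 0.44 ± 0.10 (SE) did not pass (limma adjusted p = 0.127). The 2 genes lie close together on chromosome 15, with Emc9 between them.

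Psme4 encodes PA200, a large single-chain activator. It read 11.32, 11.38 and 11.43 after SAH and 11.02, 11.15 and 11.12 in sham, a difference of 0.28 ± 0.09 (SE) that did not pass (limma adjusted p = 0.251). Since Psme3 could not be used, Psme4 served as the counterpart of PA28, a choice made after the data were seen. Psme2 minus Psme4 shifted by 0.38 ± 0.07 (SE; exact permutation p = 0.1, adjusted 0.125). Psme1 minus Psme4 shifted by 0.16 ± 0.12 (SE; exact permutation p = 0.3), and its groups overlapped.

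Psmf1 encodes PI31, a protein named for inhibiting the 20S core in vitro. Psmf1 (probe set 17778262) read 11.74, 11.86 and 12.04 in the SAH arrays and 10.86, 10.87 and 10.86 in the sham arrays. The sham values were nearly equal, and the lowest SAH value stood 0.87 above them. Psmf1 rose 2.02-fold, from 10.86 ± 0.01 to 11.88 ± 0.15 (n = 3 each; limma log2 difference 1.02 ± 0.11 SE; adjusted p = 0.0145). Among the 39 genes only Psmb9, Psmb8 and Psmb10 differed more, and its 95% interval of 0.76 to 1.27 overlapped with theirs. The call held without SAH array 1 (limma adjusted p = 0.00966) and was lost with SAH array 4 (0.0805), SAH array 5 (0.05003), sham array 6 (0.110), sham array 7 (0.102) or sham array 8 (0.0627) left out.

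**Figure D2:**
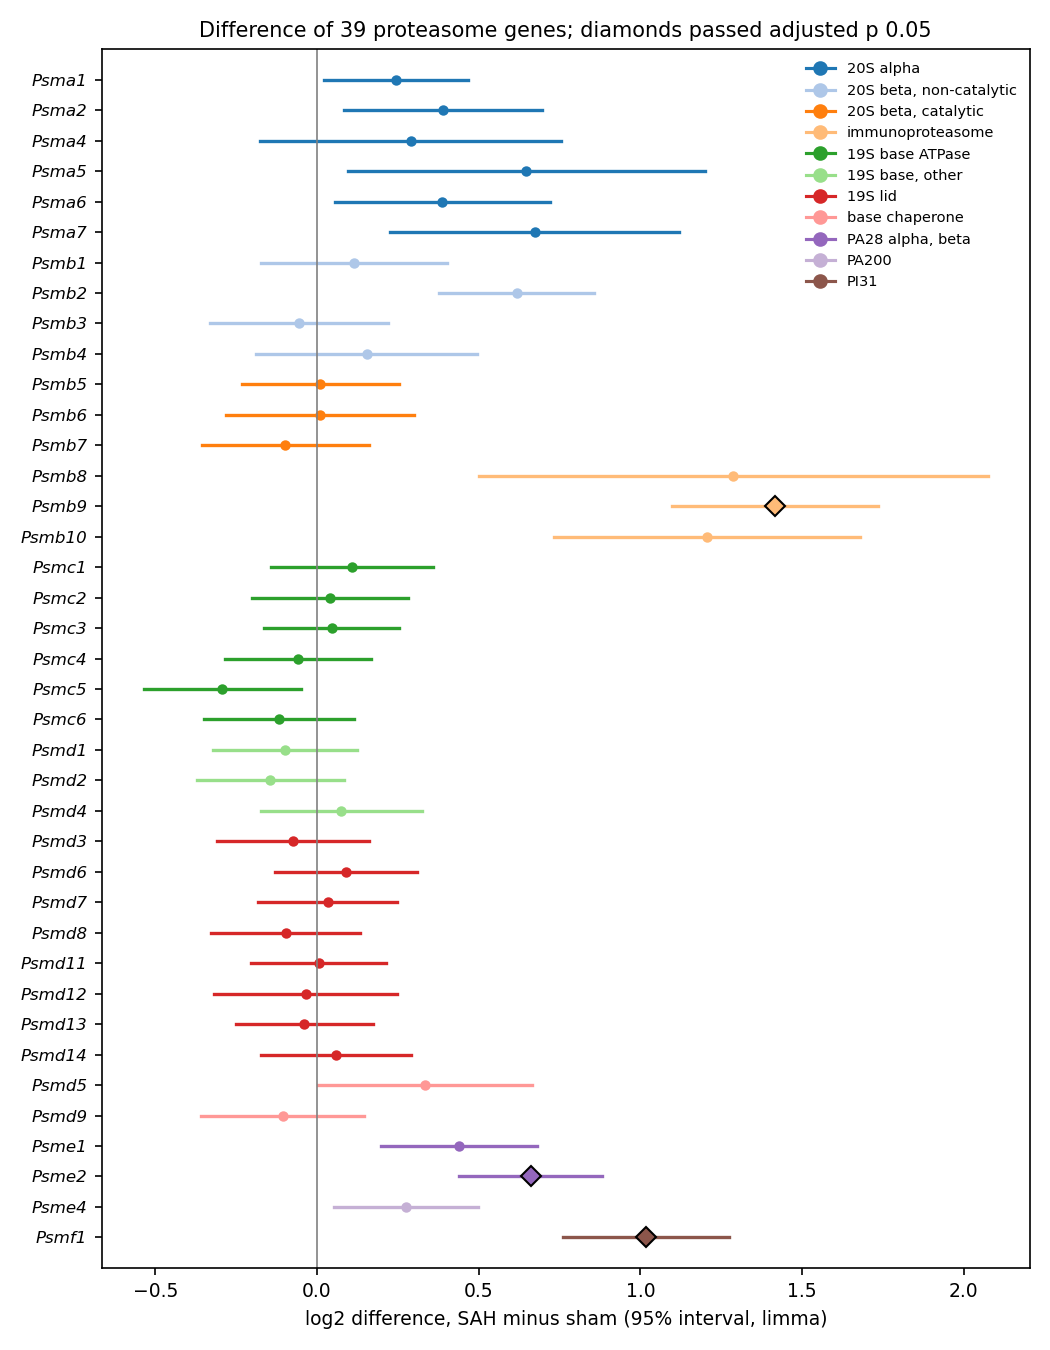
Log2 difference, SAH minus sham, of each of the 39 genes (horizontal axis) with limma's 95% interval, coloured and ordered by role in the proteasome. Diamonds mark Psmb9, Psme2 and Psmf1, which passed an adjusted p of 0.05; the intervals of the 17 genes of the 19S base and lid all include 0 except that of Psmc5.

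The alpha subunits form the outer rings of the core and its gate. None of the 6 measured passed, and all 6 differences were above 0, from 0.24 for Psma1 to 0.67 for Psma7, with a median of 0.39. In 5 of the 6 the SAH values lay above all sham values, as they did in 11.4% of all genes. Psma7 read 9.94, 10.63 and 10.55 after SAH and 9.63, 9.76 and 9.71 in sham (difference 0.67 ± 0.19 SE; limma adjusted p = 0.185). Psma5 read 8.76, 9.71 and 9.45 after SAH and 8.58, 8.68 and 8.73 in sham (difference 0.65 ± 0.23 SE; limma adjusted p = 0.272). In both genes SAH array 1 lay near the sham arrays and SAH arrays 4 and 5 well above them. Without SAH array 1 both passed, Psma7 at 0.89 (limma adjusted p = 0.0165) and Psma5 at 0.92 (limma adjusted p = 0.0261). Without SAH array 4 the differences were 0.54 and 0.45, and with any array but SAH array 1 left out neither passed (limma adjusted p of 0.3105 to 0.467 for Psma7 and 0.383 to 0.564 for Psma5). Psma2 and Psma6 differed by 0.39 ± 0.13 and 0.39 ± 0.14 (SE), with limma adjusted p of 0.241 and 0.276. The groups of Psma4 overlapped.

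Psmb1, Psmb2, Psmb3 and Psmb4 are beta subunits without catalytic activity. Psmb2 (probe set 17802178) stood apart from the other 3. It read 12.64, 12.78 and 12.87 after SAH and 12.18, 12.10 and 12.16 in sham, with no overlap and a gap of 0.46. Its difference was 0.62 ± 0.10 (SE), 1.53-fold, just short of the threshold in limma's test (adjusted p = 0.0562). It passed when quantile normalization was repeated (limma adjusted p = 0.0482), with trend and robust options (0.0216), with array weights (0.0362), without dim probe sets (0.0199) and without SAH array 1 (0.0330). It did not pass with array medians subtracted (limma adjusted p = 0.0587), with the neutrophil covariate (0.278) or with any other array left out (0.147 to 0.238). Psmb1, Psmb3 and Psmb4 differed by 0.11, -0.05 and 0.15, and their groups overlapped.

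The genes of the 19S particle lay close to the median of all genes. Of 17 measured genes of its base and lid none passed, 8 differences were above 0 and 9 below, and the median was -0.03, against -0.01 over all genes. The 6 ATPases, Psmc1 to Psmc6, unfold the substrate and feed it into the core, and they differed by -0.29 to 0.11. Psmc5 was the lowest of all 39 genes. It read 8.43, 8.49 and 8.27 after SAH and 8.75, 8.63 and 8.69 in sham, with no overlap, and the difference of -0.29 ± 0.10 (SE) did not pass (limma adjusted p = 0.262). In Psmd2 the groups also did not overlap, by less than 0.01 (difference -0.14 ± 0.10 SE), so 2 of the 17 genes had all SAH values below sham, as did 15.4% of all genes. The 8 lid genes, which include the deubiquitinase gene Psmd14, differed by -0.10 to 0.09, and the groups of all 8 overlapped. Psmd4, a ubiquitin receptor, differed by 0.08 ± 0.11 (SE).

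Psmd5 and Psmd9 encode chaperones that help to build the 19S base and are not part of the finished particle. Psmd5 read 8.52, 9.004 and 8.76 after SAH and 8.34, 8.48 and 8.47 in sham, a difference of 0.33 ± 0.14 (SE; limma adjusted p = 0.344). The groups were separated by only 0.04. Psmd9 differed by -0.11 ± 0.11 (SE).

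**Figure D3:**
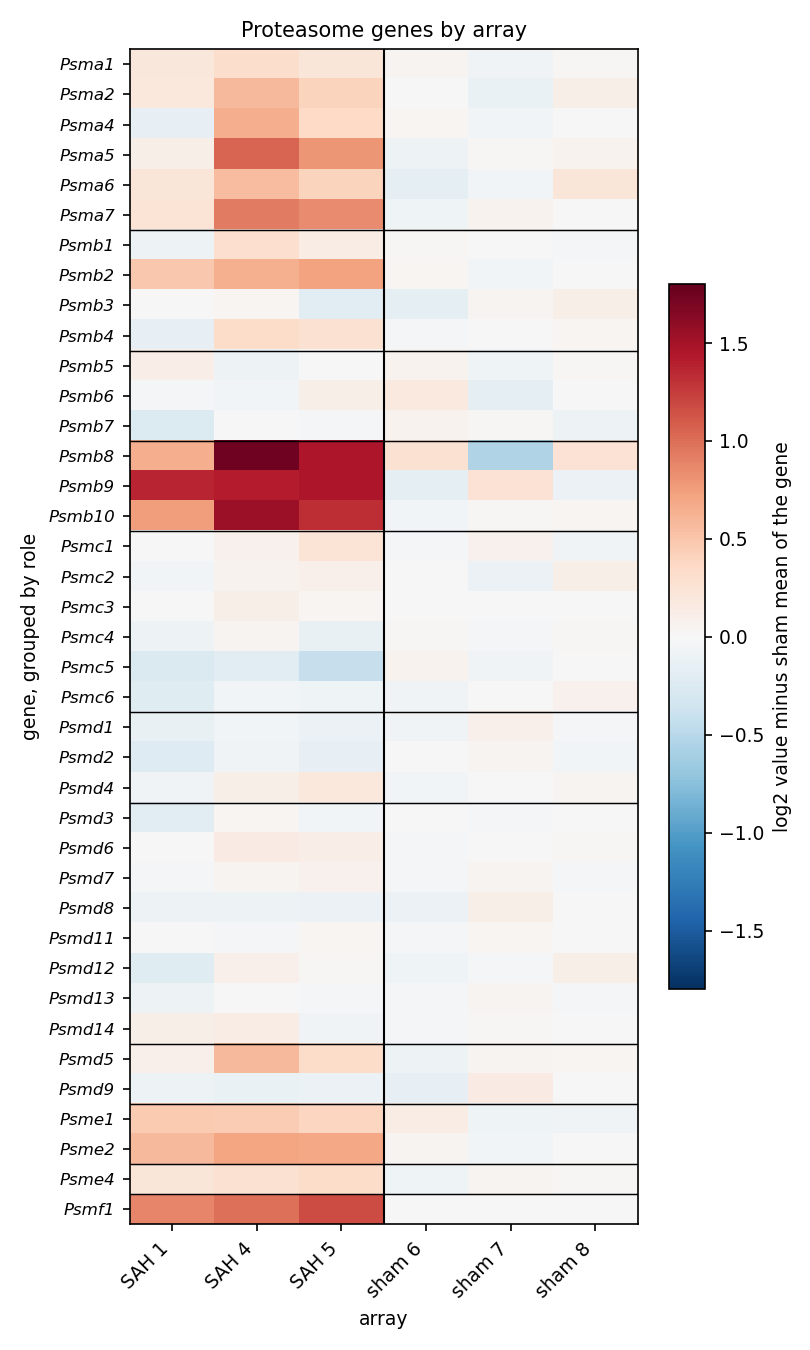
Log2 value minus the sham mean of the gene (colour scale) for the 39 genes (rows, grouped by role) on the 6 arrays (columns). The rows of Psmb8, Psmb9, Psmb10, Psmf1, Psme2 and Psmb2 are red in all 3 SAH arrays, and the alpha subunit rows are paler in SAH array 1 than in SAH arrays 4 and 5.

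Averaged over the 6 alpha subunits, the deviation from the sham mean was 0.14, 0.68 and 0.50 in SAH arrays 1, 4 and 5. Over the 3 inducible catalytic subunits it was 0.93, 1.57 and 1.42. SAH array 1 was thus the lowest SAH array in both sets, while for PA28 (0.52, 0.59 and 0.54) the arrays were close to each other. For the 17 genes of the 19S base and lid the deviations were -0.09, 0.02 and -0.02.

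Genes that assemble, assist or regulate the proteasome were taken from a list of 27, of which 21 were measured. None passed, 15 differences were above 0 and 6 below, and the median was 0.07. The smallest p belonged to Zfand2a, which encodes an arsenite-inducible partner of the 19S cap (0.48 ± 0.12 SE; limma adjusted p = 0.151), and to Vcp, the ATPase p97 that delivers ubiquitinated proteins (0.37 ± 0.12 SE; limma adjusted p = 0.228). Pomp, the chaperone that matures the core, differed by 0.02 ± 0.13 (SE). Nfe2l1, the transcription factor that drives constitutive subunits when proteasome activity falls short, differed by 0.11 ± 0.11 (SE). Psmb11, the thymus-specific beta subunit, lay between 6.84 and 7.14 on all arrays, below the array medians. Of the ubiquitin and E1 enzyme genes 3 of 7 were measured and none passed, with Uba1, the main ubiquitin-activating enzyme, at 0.26 ± 0.09 (SE; limma adjusted p = 0.276) and Uba6 at -0.04 ± 0.10 (SE).

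Among 11 measured genes that carry or control interferon signals, 3 rose, none fell and all 11 differences were above 0 (median 0.56). Of all genes 0.963% were called higher and 0.33% lower, and 47.3% had differences above 0. The list was chosen with earlier results of these data known. Stat2 rose 2.35-fold, Irf9, its partner in the complex that binds interferon-stimulated response elements, rose 1.85-fold, and Nlrc5, the class I transactivator, rose 4.28-fold (limma adjusted p = 0.00786, 0.0180 and 0.0416). Irf1, a known activator of Psmb9, read 10.92, 11.86 and 12.12 after SAH and 10.86, 11.01 and 11.48 in sham, so that its groups overlapped (difference 0.52 ± 0.32 SE; limma adjusted p = 0.536).

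Genes of the class I peptide route take up the products of the proteasome. Of 15 measured, 3 rose and none fell, with a median of 0.02, where 0.963% of all genes were called higher and 0.33% lower. In 6 of the 15 all SAH values lay above sham, against 11.4% of all genes. In the MHC class II region of chromosome 20, Psmb8 lies between the peptide transporter genes Tap2 and Tap1, and Psmb9 is the next gene after Tap1. Tap1 rose 2.66-fold (limma adjusted p = 0.0242), against 2.67-fold for Psmb9, and Tap2 differed by 1.17 ± 0.19 (SE; limma adjusted p = 0.0580). Tapbp and Tapbpl, which load and edit peptides, rose 2.77-fold and 1.94-fold (limma adjusted p = 0.0107 and 0.0211). The peptidases Lap3, Thop1, Tpp2, Npepps, Blmh and Nrdc, which trim or destroy proteasome products in the cytosol, had differences between -0.15 and 0.12 and did not pass.

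Leukocytes hold much immunoproteasome, and their markers varied among the arrays. In bulk tissue a change in the number of cells of a type and in RNA per cell cannot be told apart. Neutrophil markers were measured for 10 of 12 genes, none passed and 9 differences were above 0. Their mean log2 value was 8.80, 8.88 and 9.98 after SAH, against 7.19, 7.29 and 9.41 in sham. Sham array 8 was thus above SAH arrays 1 and 4. In that array Psmb8, Psmb9 and Psmb10 read 9.21, 10.10 and 9.36. Every sham value of these 3 genes lay below every SAH value, so the reading of this 1 array adds no separate test. With the neutrophil mean as a covariate, the differences were 1.46 for Psmb9, 0.64 for Psme2 and 0.96 for Psmf1, and none passed (limma adjusted p = 0.0778, 0.193 and 0.126), where 23 genes of all passed.

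Of the 7 pan-leukocyte markers none passed and all differences were above 0, with array means of 9.81 to 10.25 in SAH and 9.17 to 9.89 in sham. Of 10 monocyte and macrophage markers none passed, and 5 differences lay on each side of 0 (SAH 9.24 to 9.41, sham 9.18 to 9.74). These array means cover unlike genes, with differences from -1.29 for Cd163 to 1.86 for Ccr2. All SAH values lay above sham in Ccr2 and below sham in Csf1r (-0.50). Lymphocyte and NK cell markers lay low, at array means of 6.88 to 6.96 in SAH and 6.48 to 6.71 in sham, with 12 of 12 differences above 0 and none past the threshold. In 6 of the 12 all SAH values lay above sham, against 11.4% of all genes. Nkg7 had the largest difference, at 8.34 to 8.97 in SAH against 7.09 to 7.95 in sham. Of 6 smooth muscle markers Smtn fell (limma adjusted p = 0.0197), and all 6 were below sham without overlap (SAH 11.76 to 11.84, sham 12.10 to 12.28). Among all genes 0.33% were called lower and 15.4% lay below sham without overlap, while 47.3% had differences above 0. None of 6 endothelial, 6 fibroblast, 4 erythroid and 8 neuron and glia markers passed. The part of neutrophils or of any other cell type in the proteasome values was not tested.

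**Figure D4:**
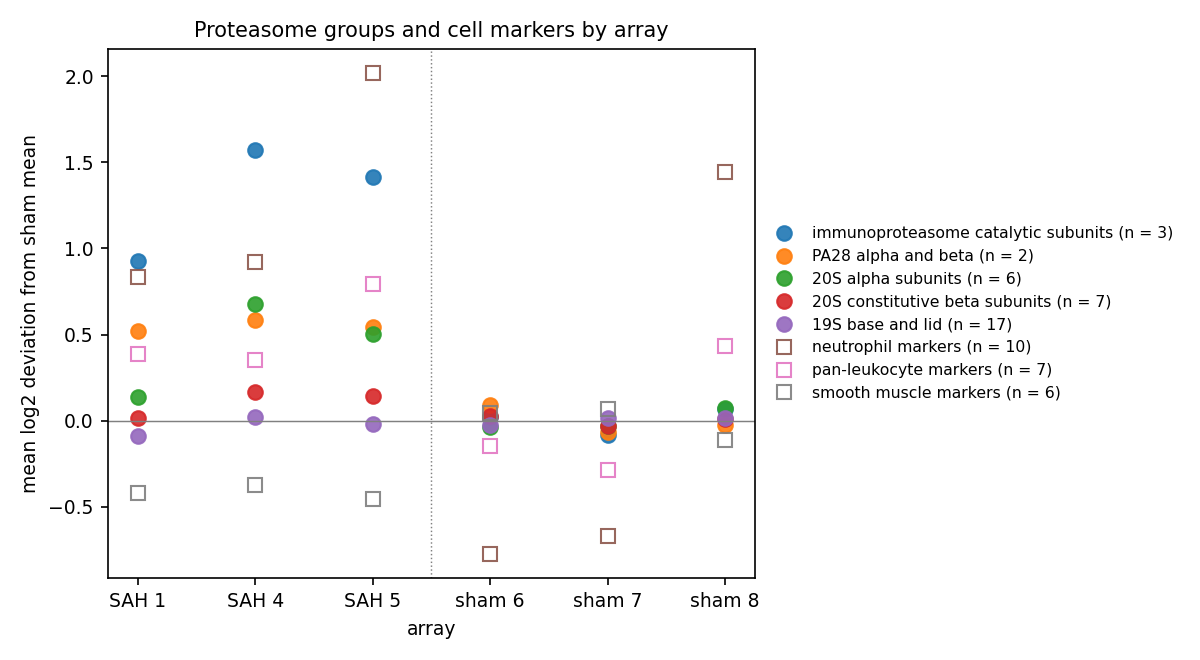
Mean log2 deviation from the sham mean (vertical axis) over 5 groups of proteasome genes (filled circles) and 3 marker lists (open squares) on the 6 arrays (horizontal axis). The inducible catalytic subunits stand at 0.93 to 1.57 in the SAH arrays and, as a mean of 3 genes, near 0 in all sham arrays. Sham deviations centre on 0 by construction, and single genes spread more, such as Psmb8 at 0.28, -0.54 and 0.26 in sham. Neutrophil markers stand at 1.45 in sham array 8, above SAH arrays 1 and 4.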

How the data were processed

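RNA from rat cerebral arteries was measured on 6 arrays, 3 SAH and 3 sham. The deposited values are log2 expression values that the authors made with Affymetrix Expression Console 1.1.2 and RMA, per the submitters' processing notes. The sources used here do not give RMA settings or a genome build. Tests used 36495 of 36685 probe sets, without 190 controls. By GEO's platform annotation 18511 name 1 gene, 575 several and 17409 none.

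The comparison was made in R 4.3.3 by limma 3.58.1 (lmFit, eBayes, two-sided, no covariate, Benjamini-Hochberg over 36495 probe sets). The 3 arrays a group limit the precision. Pairs of genes were compared by exact permutation over arrays. The members, lists and alternatives were chosen with earlier results of these data known. Named singly were the inducible genes, their counterparts, other called members and the 6 next by p, and in each pathway list up to 4 called genes or the 2 with the smallest p, while Psma1, Psma4, Psmb1, Psmb3, Psmb4, Psmd2, Psmd4, Psmd5, Psmd7, Psmd9, Psmd14, Pomp, Nfe2l1, Psmb11, Irf1, Tap2 and the peptidases were added after their values were seen. Cell markers such as Lmod1, Cldn5, Gfap, Syt1, Mog, Csf1r, Cd163, Ccr2 and Nkg7 were also named after their values were seen. Promoters were searched for 8 motifs, chosen after the array values were seen. The fit was tested on simulated data with known changes. It recovered 4.18% of log2 changes of 0.5, 71.2% of those of 1 and 97.9% of those of 2, and 5.48% of its calls were false. A member with a small difference that did not pass may thus still differ. Alternatives were repeated quantile normalization, median centring, a filter on dim probe sets, a neutrophil covariate, trend and robust options, array weights, other probe set rules, a threshold of 0.10 and leaving out each array.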

Additional observations from a re-analysis of the deposited data

How the results depend on the processing

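The 3 calls among the members rest on 3 arrays a group. Leaving out each array in turn moved the members called higher from 3 to between 0 and 8, with none called lower, and the genes called from 235 to between 29 and 670. The members called higher numbered 5 without dim probe sets (672 genes called), with trend and robust options (363 genes), with array weights (373 genes) and at an adjusted p under 0.10 (530 genes), and 0 with the neutrophil covariate (23 genes). The cause of these shifts was not tested. No member was called lower under any alternative. Psmb2 and Psmb10 were the members added in the fits with 5, and 4 passed with quantile normalization repeated, where Psmb2 joined. The difference of Psmb5 reversed with quantile normalization repeated (-0.0077), and that of Psmb6 with array medians subtracted (-0.0012), the neutrophil covariate (-0.019), the probe set of largest SD (-0.089) and the mean of its probe sets (-0.040). Without an array, Psmb5 ranged from -0.045 to 0.059 and Psmb6 from -0.080 to 0.10. Without an array the shift of Psmb8 minus Psmb5 ran from 0.997 to 1.65, of Psmb9 minus Psmb6 from 1.23 to 1.63 and of Psmb10 minus Psmb7 from 1.18 to 1.46. The planned pairs with Psme3 were not run, since no probe set named it alone. No paired analysis was made, since the labels give no pairing of SAH and sham arrays.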

Other observations

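Some probe sets of the proteasome genes name several genes and entered no comparison of members. The probe set shared by Psma3 and its near copy Psma3l (17816362) read 10.20, 10.44 and 10.40 after SAH and 10.13, 10.15 and 9.98 in sham, with all SAH values above sham and a difference of 0.26 ± 0.11 (SE; limma adjusted p = 0.349). Psme3, which encodes the nuclear activator PA28 gamma, is named on 9 probe sets that also name Aoc3 and G6pc1, and on 1 of them Aoc2-ps1. Their differences ran from -0.73 to 0.23 and none passed in limma's test. The lowest (17651311) lists Aoc3, a vascular amine oxidase gene, before Psme3, and read 11.39, 11.36 and 11.10 after SAH against 12.05, 12.18 and 11.81 in sham (limma adjusted p = 0.0799). These values cannot be assigned to either gene.

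The pseudogenes Psma6-ps1 and Psmd1-ps1 and the copy Psmb3l2 have probe sets of their own. They differed by -0.23 ± 0.17, 0.06 ± 0.09 and 0.42 ± 0.23 (SE), and none passed.

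Of the other motifs searched in the promoter table, on both strands, an NF-kappaB motif (GGG, any 2 bases, TTTCC) was found for 1 of 38 members (1.53% of all promoters), CACGTG for 5 (6.42%), CCAAT for 20 (37.5%) and GGGCGG for 26 (33.1%). The shorter GAAANNGAA, which every match of the response element core contains, was found for 8 members (9.71% of all promoters), adding Psmb2 and Psmd11.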
